A study of Mus musculus with 12 samples.

Results

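The collagen genes were followed in mouse mammospheres in a differentiated and an undifferentiated state. Members were all probe sets that the platform tables pair with 1 gene whose symbol is Col, a number, a and a number, such as Col1a1. They came to 42 genes with 82 probe sets, of 18194 genes and 45265 probe sets on both chips. The genes were sorted into the classes in which collagens are usually grouped: 11 fibrillar genes, 9 fibril-associated genes, 6 genes of the basement membrane network (type IV), 5 genes of the beaded filaments (type VI), 4 transmembrane genes, 3 genes of the hexagonal networks (types VIII and X), 2 multiplexins, 1 gene of the anchoring fibrils (type VII) and Col26a1, which was left on its own.

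Collagens are secreted or membrane-bound proteins of the extracellular matrix whose chains wind around each other into a stiff helix. Fibrillar collagens pack side by side into the cables that give a tissue its tensile strength, fibril-associated collagens coat those cables, and type IV collagen builds the sheet-like network of basement membranes. In the mammary gland a basement membrane underlies the myoepithelial layer and separates the epithelium from a stroma rich in fibrillar collagen that fibroblasts lay down.

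Mammospheres are balls of cells from the mammary gland that grow in suspension. The 3 differentiated samples (numbered 1, 2 and 4) had been cultured for 6 days on dishes coated with collagen, with DMEM of high glucose and fetal bovine serum at 5%, and were estimated by the submitters to hold 50% myoepithelial and 50% luminal cells. The 3 undifferentiated samples (also 1, 2 and 4) were mammospheres of passage 3 in 3:1 DMEM and F12 with B-27, basic fibroblast growth factor, epidermal growth factor and heparin, at an estimated purity of 90% with 10% myoepithelial cells. Total RNA of each sample was hybridised to 2 Affymetrix chips, MOE430A and MOE430B, so there were 12 arrays, and their number limits the precision. The labels give no strain or age, and do not say whether replicates are separate animals or cultures, so p-values measure the spread between these samples, which may be technical. Serum, medium, coated dish and fluidics station (1 for differentiated, 2 for undifferentiated arrays) went with the state and cannot be told apart from it.

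Values are MAS5 signals, a linear intensity for each probe set, and the background given with them is the brightest TrpnX control probe set of an array (515.5 to 829.9 on MOE430A, 1674 to 2995 on MOE430B). On every MOE430B array this background exceeded the trimmed mean signal of the array (1500.2), so a value below it there need not mean absence. On the differentiated arrays the hybridisation controls, which are added in equal amount to each sample, were 1.35 to 2.80 times the mean of the undifferentiated arrays on MOE430A, with sample 2 the lowest. The poly-A controls, a second set, were 0.83 to 1.16 times their undifferentiated mean on the differentiated MOE430A arrays. On the undifferentiated ones they were 0.86 to 1.07 times that mean. A marker was counted as above background where all 3 arrays of a state exceeded it, and by that rule most markers of the labelled cell types were not. Of 8 myoepithelial or basal markers 1 was in each state, Acta2, which passed as higher in differentiated samples by limma at an adjusted p under 0.05 (log2 fold change 3.14). Cnn1 exceeded background on 2 of 3 differentiated arrays and on no undifferentiated one and also passed as higher (1.98, adjusted p = 0.0171), so 2 of the 6 tested markers of this list did. With undifferentiated values raised to background, the rise of Cnn1 had no lower bound. Krt5, Krt14, Krt17, Trp63, Myh11 and Oxtr were below background on all arrays. Of 8 luminal markers 2 were above background in differentiated samples (Krt8, Epcam), against 1 (Krt8) in undifferentiated ones, and none of the 4 tested passed. For this count 1 probe set of a gene sufficed. Epcam was counted by its MOE430B probe set, with 3911, 10032 and 7869 in differentiated samples, against 7376, 1962 and 8817 in undifferentiated samples. The Epcam probe set on MOE430A was below background on all arrays. All 8 fibroblast markers were above background in both states, with summed signals of 114120 to 151260 in differentiated and 150010 to 158290 in undifferentiated samples. Of these 8, Pdgfra and Thy1 passed the test as higher in differentiated samples (log2 fold changes 1.35 and 1.66), Lum and Fap as lower (-1.52 and -1.39), and Dcn, Pdgfrb, Twist2 and Dpt did not pass. Of 5 endothelial markers Kdr passed as higher (0.56), Pecam1 and Tek passed as lower (-1.41 and -0.62), and Cdh5 and Emcn did not pass. Pecam1 and Tek were below background on all differentiated arrays and above it on 2 undifferentiated ones. With values raised to background, Pecam1 was at least 1.00-fold lower and Tek had no lower bound. Of the 5, 1 was above background in differentiated samples (Kdr), against 3 in undifferentiated ones (Cdh5, Kdr and Emcn). Of 4 tested macrophage and leukocyte markers Cd14 and Csf1r passed as higher (0.97 and 0.77) and Cd68 and Adgre1 did not pass, and the summed signal of the 4 was 5308 to 5773 in differentiated and 3673 to 3868 in undifferentiated samples. Of the 2 tested Schwann markers Sox10 passed as higher (0.68), and S100b, below background on all arrays, as lower (-0.96). All 3 tested mast cell markers passed as lower, Kit, Mcpt4 and Cpa3 (-1.97, -1.42 and -1.36). Kit was below background on all differentiated arrays, so it was at least 2.80-fold lower. Mcpt4 exceeded background on 1 undifferentiated array and no differentiated one, and its fall had no lower bound. Over all genes tested in the same way 18.5% passed (9.23% higher, 9.27% lower). The 1 tested adipocyte marker, Fabp4, did not pass and exceeded background on 1 differentiated array and no undifferentiated one. The arrays read bulk RNA, so fewer cells of a type and less RNA per cell cannot be told apart, and the part of these markers in the collagen results was not tested.

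Of the 42 collagen genes, 37 reached the mean signal set for testing (300.1 units) and were compared by limma, differentiated minus undifferentiated, on log2 signals after an offset of 75 units. The brightest tested probe set on MOE430A stands for a gene, and the brightest on MOE430B for a gene tested on that chip only. At an adjusted p under 0.05, 14 collagen genes were higher in differentiated samples, 9 were lower and 14 did not pass. Over all 14977 genes tested in the same way, 18.5% passed (9.23% higher, 9.27% lower). The 3 values of a state did not overlap those of the other in 27 of the 37 genes, and in 39.2% of all genes. Collagen genes had a median log2 fold change of 0.32, against 0.04 over all genes, and a median size of change, whatever its direction, of 0.87 against 0.36. A change of at least 1 on the log2 scale was seen in 18 of the 37, and in 11.8% of all genes.

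By probe set, 34 of the 42 tested on MOE430A passed (23 higher, 11 lower), against 28.5% of all probe sets of that chip (14.1% higher, 14.4% lower), and 35 did not overlap between states, against 47.7%. On MOE430B 8 of 18 passed (4 higher, 4 lower), against 1.83% of all probe sets (0.714% higher, 1.12% lower), and 11 did not overlap, against 22.8%. Of the 23 genes that passed, 16 were above background on all 6 arrays, 3 had a state wholly below it, which leaves only a lower bound for the fold, and 4 had some arrays below. For 4 tested genes (Col2a1, Col8a2, Col13a1 and Col20a1) the mean reached the testing level through 1 state only, and 3 of them passed, so the shares of tested members that passed are not shares of all members.

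**Figure D1:**
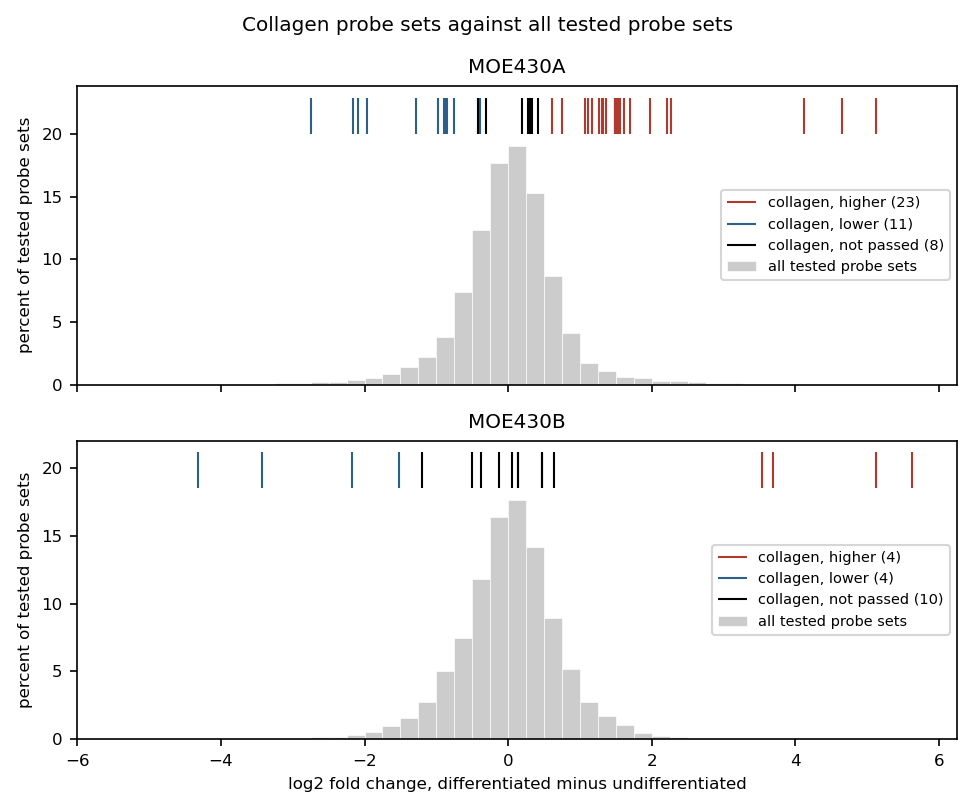
Log2 fold changes, differentiated minus undifferentiated, on MOE430A (top) and MOE430B (bottom), with grey bars for the percent of all tested probe sets in each step of the fold change and upright lines for the collagen probe sets, coloured by call. The bars centre near 0 while many collagen lines lie in both tails, with 23 higher and 11 lower on MOE430A and 4 and 4 on MOE430B; 11 of the 37 collagen genes turned sign when arrays were scaled on the hybridisation controls.

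Among the fibrillar collagens 8 of 11 genes were higher in differentiated samples, 1 was lower and 2 did not pass, with a median log2 fold change of 1.37; scaled on the hybridisation controls, Col11a2 alone of the 8 turned sign (-0.42) and none of the 8 passed. Col1a1, a chain of type I collagen, the bulk collagen of tendon, skin and bone, gave 178184, 135308 and 183165 in differentiated samples 1, 2 and 4, against 58143, 55758 and 55327 in undifferentiated samples 1, 2 and 4. Its log2 fold change was 1.54 ± 0.15 (SE, n = 3 each), adjusted p = 0.000581. Col1a2, the partner chain of type I, gave 236064, 164775 and 229369 in differentiated samples, against 80746, 83751 and 77064 in undifferentiated samples, with a log2 fold change of 1.36 ± 0.17, adjusted p = 0.00155. It was the brightest probe set of all on the 3 differentiated MOE430A arrays. Col3a1, the chain of type III, which shares fibrils with type I in pliable tissues, had 192307, 125227 and 175607 in differentiated samples, against 60682, 66240 and 67764 in undifferentiated ones (log2 fold change 1.32 ± 0.18, adjusted p = 0.00257). All differentiated values of these 3 genes stood well above all undifferentiated ones, and differentiated sample 2 was the lowest of its state in each. By quantile normalization, which gives all arrays 1 distribution, these probe sets of Col1a2 (0.31, adjusted p = 0.0743) and Col3a1 (0.34, adjusted p = 0.133) no longer passed, and that of Col1a1 passed at 0.83.

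Type V collagen sets the number and width of type I fibrils, and its chains did not move together. Col5a1 had 39111, 38380.2 and 41423 in differentiated samples, against 13535, 12683 and 16326 in undifferentiated samples, a log2 fold change of 1.49 ± 0.14, adjusted p = 0.000445. Col5a2 had 115423, 100006 and 130988 in differentiated samples, against 40588, 40787 and 39104 in undifferentiated samples (1.51 ± 0.14, adjusted p = 0.000419), and by quantile normalization it passed at 0.89. Their differentiated means were 2.80 and 2.88 times the undifferentiated means, and neither gene overlapped between states. Col5a3, a less widespread chain of type V, went the other way, with 3024, 2647 and 3049.7 in differentiated samples, against 18322, 21897 and 19313 in undifferentiated samples. Its log2 fold change was -2.74 ± 0.13, adjusted p = 3.93e-05, the largest fall among the probe sets that stand for the 37 collagen genes tested; the other 2 probe sets of Col23a1 had larger fitted falls (-3.43 and -4.32). The differentiated mean of Col5a3 was 0.146 of the undifferentiated mean, and the groups lay far apart.

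3 fibrillar genes best known from cartilage were also higher. Col11a1, a chain of type XI, which starts cartilage fibrils, had 3649, 5023 and 5017 in differentiated samples, against 1551, 1547 and 1008 in undifferentiated samples (log2 fold change 1.69 ± 0.21, adjusted p = 0.00179). Col11a2, another type XI chain, had 1091, 822 and 959 in differentiated samples, against 561, 564 and 675 in undifferentiated samples (0.61 ± 0.15, adjusted p = 0.0228). Its groups did not overlap, but 2 of the 3 undifferentiated values were below background, and the call was lost in 4 of the 6 fits that left out 1 sample (adjusted p of 0.0518 to 0.0775). Col2a1, the main collagen of cartilage, had 1185, 719 and 883 in differentiated samples, against 226, 206 and 442 in undifferentiated samples, all 3 of which were below background, so it was at least 1.58-fold higher (fitted log2 fold change 1.49 ± 0.28, adjusted p = 0.00865). Of the 4 chondrocyte markers Comp had 970, 510 and 1139 in differentiated samples, above background on 2 of the 3 arrays, against 314, 353 and 206 in undifferentiated samples, all below it, and passed as higher, by at least 1.43-fold (fitted log2 fold change 1.33 ± 0.30, adjusted p = 0.0172). Sox9, on 1 differentiated and 2 undifferentiated arrays above background, did not pass (0.13, adjusted p = 0.697), and Acan and Matn1 were below background on all arrays. The summed signal of the 3 tested chondrocyte markers was 1838 to 2343 in differentiated and 1201 to 1406 in undifferentiated samples. The part of other cell types was not tested.

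The remaining fibrillar genes did not pass on the probe sets that stand for them. Col27a1, a long fibrillar chain of the growth plate, had 11399.5, 11444 and 9815 in differentiated samples, against 18022, 11305 and 13917 in undifferentiated samples on MOE430B, and the groups overlapped (-0.38 ± 0.27, adjusted p = 0.555). Its other tested probe set had 3658, 3127 and 3453 in differentiated samples, against 8729, 12668 and 8904 in undifferentiated samples, and passed as lower (-1.53 ± 0.26, adjusted p = 0.0433). Col24a1, known from developing bone, had 654, 753 and 571 in differentiated samples, against 1351, 2058 and 1489 in undifferentiated samples. These did not overlap but were all below background (log2 fold change -1.20 ± 0.27, adjusted p = 0.0965).

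**Figure D2:**
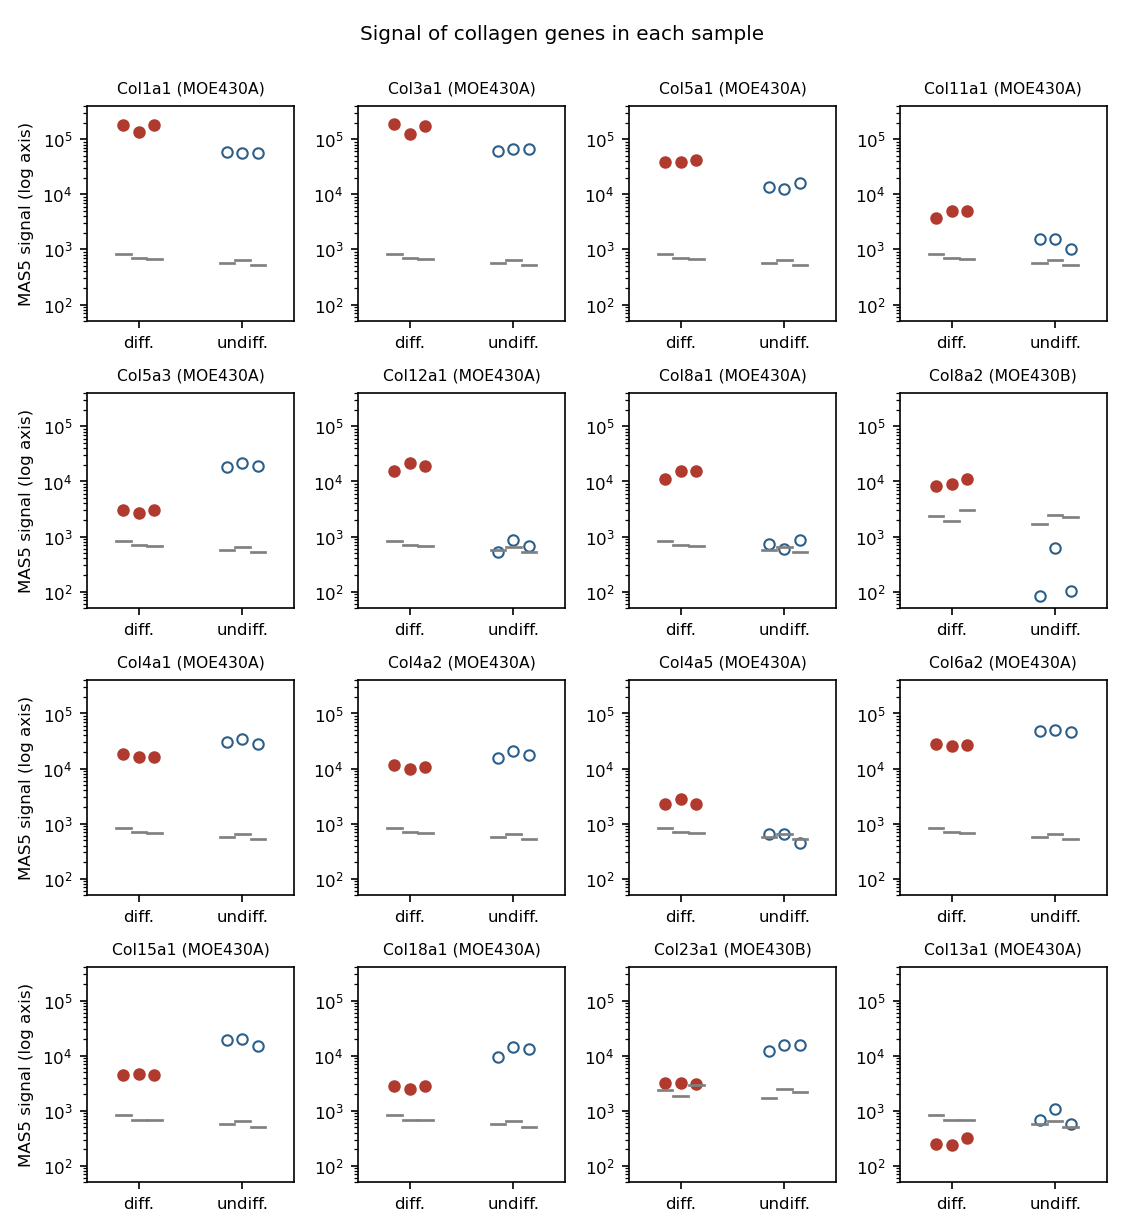
MAS5 signal of 16 collagen genes in each sample on a log axis, differentiated samples to the left of undifferentiated ones, with a grey bar at each array's background. Col1a1, Col3a1, Col5a1 and Col11a1 were higher in all 3 differentiated samples and Col5a3 was lower in all 3, while the undifferentiated values of Col8a2 lie below the grey bars.

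Promoter windows of 300 bases (250 before to 50 after an annotated start) from RefSeq, build GRCm38.p6, were found for 33 of the 42 collagen genes. Those of 2 fibrillar genes that were higher, Col3a1 and Col1a2, and of Col5a3, which was lower, are shown 5′ to 3′ along the gene, because these genes of 1 class moved in opposite directions. Capitals mark 3 motifs: GGGCGG as the letters of a GC box, then the box CCAAT and the box TATAAA. All were searched on both strands, a match on the other strand appears as its reverse complement, and no motif contains another.
Col3a1 (chr1:45311288-45311587, plus strand): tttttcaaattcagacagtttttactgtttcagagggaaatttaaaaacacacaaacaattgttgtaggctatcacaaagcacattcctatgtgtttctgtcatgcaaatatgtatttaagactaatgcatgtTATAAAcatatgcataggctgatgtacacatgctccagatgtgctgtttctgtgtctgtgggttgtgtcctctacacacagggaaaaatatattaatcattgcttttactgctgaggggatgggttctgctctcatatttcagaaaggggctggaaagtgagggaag
Col1a2 (chr6:4505368-4505667, plus strand): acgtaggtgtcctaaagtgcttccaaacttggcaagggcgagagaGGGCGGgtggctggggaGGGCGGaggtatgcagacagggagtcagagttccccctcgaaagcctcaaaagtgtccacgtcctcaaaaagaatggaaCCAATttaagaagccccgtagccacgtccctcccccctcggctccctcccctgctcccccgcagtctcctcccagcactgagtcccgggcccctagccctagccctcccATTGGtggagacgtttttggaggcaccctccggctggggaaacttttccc
Col5a3 (chr9:20815018-20815317, minus strand): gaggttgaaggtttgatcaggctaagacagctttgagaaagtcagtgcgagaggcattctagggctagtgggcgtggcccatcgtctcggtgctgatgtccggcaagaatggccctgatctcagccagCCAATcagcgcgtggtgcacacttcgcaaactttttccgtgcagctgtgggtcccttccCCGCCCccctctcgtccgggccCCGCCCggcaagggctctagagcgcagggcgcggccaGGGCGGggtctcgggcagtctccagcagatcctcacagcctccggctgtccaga
The Col3a1 window held 1 TATAAA, beginning 117 bases before the start, and neither of the other motifs. Col1a2 held 2 GGGCGG and 2 CCAAT, and Col5a3 held 3 GGGCGG and 1 CCAAT. Of 32851 windows in the table, 35.7% held GGGCGG, 37.4% CCAAT and 13.6% TATAAA. Among collagen genes with a window, GGGCGG was in 7 of the 9 that were higher and in 6 of the 9 that were lower, and CCAAT was in 4 of 9 in either direction. A gene was counted if any of its windows held the motif, and Col9a1, Col6a2 and Col18a1 had 2 windows each, whereas the percentages are of single windows. TATAAA was in 2 of the 9 higher genes and 1 of the 9 lower ones. These matches describe letters in the windows and nothing about a factor that may bind there.

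The hexagonal network and fibril-associated classes held the collagen genes with the largest rises. Col8a1, a short chain that forms lattices in the cornea and in vessel walls, had 11184, 15354 and 15581 in differentiated samples, against 735, 591 and 874 in undifferentiated samples. Its log2 fold change was 4.12 ± 0.19 (SE, n = 3 each), adjusted p = 3.58e-05, and 1 of the 3 undifferentiated values was below background. Col8a2, its partner chain, was tested on MOE430B and had 8232, 8889.6 and 10919 in differentiated samples, against 83.3, 608 and 103 in undifferentiated samples. All its undifferentiated values lay below background, so the gene was at least 4.42-fold higher (fitted log2 fold change 5.13 ± 0.57, adjusted p = 0.0126). The call was lost in 4 of the 6 fits that left out 1 sample (adjusted p of 0.05 to 0.0748). Col10a1, the remaining gene of the class and a marker of hypertrophic cartilage, was below the testing level in both states (81.6 to 93.6 in differentiated and 48.7 to 53.9 in undifferentiated samples).

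Among the fibril-associated genes 3 of 7 tested were higher and 4 did not pass, with a median log2 fold change of 0.64; 2 of the 3 that passed, Col14a1 (-0.052) and Col9a1 (-0.32), turned sign when arrays were scaled on the hybridisation controls. Col12a1, which decorates type I fibrils in dense connective tissue, had 15432, 21975 and 18905 in differentiated samples, against 534, 848 and 664 in undifferentiated samples, with a log2 fold change of 4.64 ± 0.20, adjusted p = 3.26e-05. On MOE430B another of its probe sets had 42014, 53938 and 58361 in differentiated samples, against 754, 1197 and 967 in undifferentiated samples, which were all below background, and so was at least 24.3-fold higher. Col12a1 was far above background in every differentiated sample and, on MOE430A, above it in 2 of the 3 undifferentiated samples. Col14a1, a relative of Col12a1 on the same fibrils, had 8436, 5564 and 5806 in differentiated samples, against 2774, 3499 and 2941 in undifferentiated samples (1.07 ± 0.19, adjusted p = 0.00775), and on MOE430B, where all undifferentiated values and 2 of the 3 differentiated ones were below background, the rise came to 1.07-fold or more. Col9a1, a chain of type IX that coats cartilage fibrils, had 1719, 1293 and 1683 in differentiated samples, against 817, 896 and 979 in undifferentiated samples (0.75 ± 0.15, adjusted p = 0.0124), and its other tested probe set had 517, 418 and 363 in differentiated samples, against 359, 268 and 413 in undifferentiated samples, all below background, and did not pass (0.27 ± 0.18, adjusted p = 0.3). The groups of both genes did not overlap on the probe sets shown first.

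The other fibril-associated genes tested, Col16a1, Col19a1, Col20a1 and Col22a1, had log2 fold changes between 0.19 and 0.64, with adjusted p-values of 0.335 to 0.395. The 95% intervals were -0.15 to 0.52 for Col16a1 and -0.08 to 1.35 for Col22a1. Each covered both a fall and a rise, so these arrays did not settle the direction of change for either gene. Col20a1 lay just above the testing level, with 549, 259.9 and 392 in differentiated samples, against 292, 303 and 295 in undifferentiated samples, all below background. Just under that level was Col26a1 on MOE430B, with 298, 214 and 302 in differentiated samples, against 530.4, 90.5 and 293 in undifferentiated samples. Both genes overlapped between states. Col9a2 and Col9a3, the partner chains of Col9a1, were not tested, and no signal of theirs on any array exceeded 175.

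Type IV collagen genes split. Of 6 genes, 2 were lower in differentiated samples, 1 was higher and 3 did not pass (median 0.10). Col4a1, which with Col4a2 forms the network of nearly all basement membranes, had 18617, 16009 and 16456 in differentiated samples, against 30540.4, 34972 and 28278 in undifferentiated samples, a log2 fold change of -0.87 ± 0.14 (SE, n = 3 each), adjusted p = 0.00447. Col4a2 had 11612, 9740.3 and 10789 in differentiated samples, against 15521, 20981 and 17957 in undifferentiated samples (-0.75 ± 0.15, adjusted p = 0.0124). Every undifferentiated value of both chains exceeded every differentiated one. Col4a5, a chain of the kidney and lung network whose human form is mutated in Alport syndrome, had 2262, 2809 and 2298 in differentiated samples, against 648, 642 and 440.4 in undifferentiated samples (1.97 ± 0.18, adjusted p = 0.000402). Only 1 of its 3 undifferentiated values was above background, and a second probe set with all 3 below it was at least 2.52-fold higher. The other chains were dim: Col4a3, Col4a4 and Col4a6 had log2 fold changes of 0.32, -0.13 and 0.33, with adjusted p-values of 0.416, 0.92 and 0.252, and most of their values were below background.

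Col4a1 and Col4a2 lie head to head on chromosome 8, and their promoter windows are shown because the 2 genes were both lower and share part of that sequence. Capitals mark the same motifs as above.
Col4a1 (chr8:11312777-11313076, minus strand): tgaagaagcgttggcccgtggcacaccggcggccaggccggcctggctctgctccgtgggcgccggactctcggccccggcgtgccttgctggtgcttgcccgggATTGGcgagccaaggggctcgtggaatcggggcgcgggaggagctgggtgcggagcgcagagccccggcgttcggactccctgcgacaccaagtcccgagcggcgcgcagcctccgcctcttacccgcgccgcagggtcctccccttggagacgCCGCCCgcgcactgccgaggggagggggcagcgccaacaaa
Col4a2 (chr8:11312555-11312854, plus strand): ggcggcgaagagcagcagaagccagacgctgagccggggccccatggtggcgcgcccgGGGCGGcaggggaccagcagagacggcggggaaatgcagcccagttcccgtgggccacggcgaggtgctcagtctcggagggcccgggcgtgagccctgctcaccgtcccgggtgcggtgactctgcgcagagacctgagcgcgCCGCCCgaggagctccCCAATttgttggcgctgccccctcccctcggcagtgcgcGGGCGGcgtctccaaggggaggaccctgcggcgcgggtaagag
The windows overlap by 78 bases (chr8:11312777-11312854), with the start of Col4a1 annotated at 11312826 on the minus strand and that of Col4a2 at 11312805 on the plus strand, so that the annotated transcripts overlap for 22 bases. The stretch they share held 1 GGGCGG and neither CCAAT nor TATAAA. Each window on its own held 1 CCAAT. Of 7 pairs of collagen genes that are neighbours in the annotation, both members passed in the same direction in 2, Col4a1 with Col4a2 (lower) and Col3a1 with Col5a2 (higher). In the pair Col4a6 and Col4a5 only Col4a5 passed, with log2 fold changes of 0.33 and 1.97, and their difference was not tested.

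Type VI collagen forms beaded filaments close to basement membranes. Of its 5 genes 2 were lower in differentiated samples and 3 did not pass, with a median of -0.39. Col6a2 had 28218, 25508 and 26442 in differentiated samples, against 48848, 49359 and 46359.8 in undifferentiated samples, a log2 fold change of -0.85 ± 0.12, adjusted p = 0.0024, and by quantile normalization it passed at -1.28. Col6a3, the longest of the common chains, had 32496, 35131 and 32453 in differentiated samples, against 44034, 44801 and 42441 in undifferentiated samples (-0.39 ± 0.11, adjusted p = 0.0409). This small change lost its call in each fit that left out 1 sample, where the adjusted p was 0.0605 to 0.118. Col6a1 had 36141, 34028 and 34337 in differentiated samples, against 44522, 45654 and 39849 in undifferentiated samples, with no overlap but no call (-0.31 ± 0.12, adjusted p = 0.0919). The 3 common chains were brighter in all undifferentiated samples, by unequal amounts. Col6a4 and Col6a5 were below background on all arrays and did not pass (-0.51 and 0.05). Col6a4 had 870, 1406 and 1348 in differentiated samples, against 1185, 2230 and 1897 in undifferentiated samples, and its other tested probe set, with the opposite sign, had 700.2, 1050 and 261 in differentiated samples, against 167, 1354 and 242 in undifferentiated samples. Both probe sets overlapped between states. Col7a1, of the anchoring fibrils that tie epithelium to stroma, had 981, 1301 and 647 in differentiated samples, against 1398, 1394 and 1086 in undifferentiated samples, and overlapped (-0.42 ± 0.25, adjusted p = 0.238).

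The transmembrane collagens and the multiplexins, which lie at the cell surface and in the basement membrane zone, were lower where they passed. Col15a1, a multiplexin of the basement membrane zone of muscle and vessels, had 4465, 4686 and 4448 in differentiated samples, against 19048, 20133 and 15136 in undifferentiated samples, a log2 fold change of -1.97 ± 0.15 (SE, n = 3 each), adjusted p = 0.000164. Col18a1, the precursor of endostatin, had 2799, 2489 and 2756 in differentiated samples, against 9576, 14376 and 13359 in undifferentiated samples (-2.16 ± 0.18, adjusted p = 0.000256). The differentiated means of these 2 genes were 0.25 and 0.216 of the undifferentiated means, with no overlap. Col23a1, a transmembrane collagen, had 3208, 3178 and 3074 in differentiated samples, against 12198, 15895 and 15682 in undifferentiated samples on MOE430B (-2.17 ± 0.23, adjusted p = 0.0118), and its other 2 probe sets, below background in all differentiated samples, were at least 5.98-fold and 2.11-fold lower. Its call on the probe set shown first was lost without undifferentiated sample 2 (adjusted p = 0.0675) or 4 (0.0772). Col13a1, found at cell adhesions and at the neuromuscular junction, had 250.4, 239 and 314 in differentiated samples, all below background, against 693, 1061 and 576 in undifferentiated samples, and was at least 1.03-fold lower (fitted log2 fold change -1.28 ± 0.22, adjusted p = 0.00641). Col25a1, a transmembrane collagen of neurons, did not pass (0.42 ± 0.26, adjusted p = 0.263). Col17a1, of the hemidesmosomes that anchor basal epithelial cells, was not tested, with at most 42.5 in differentiated and 85.7 in undifferentiated samples.

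**Figure D3:**
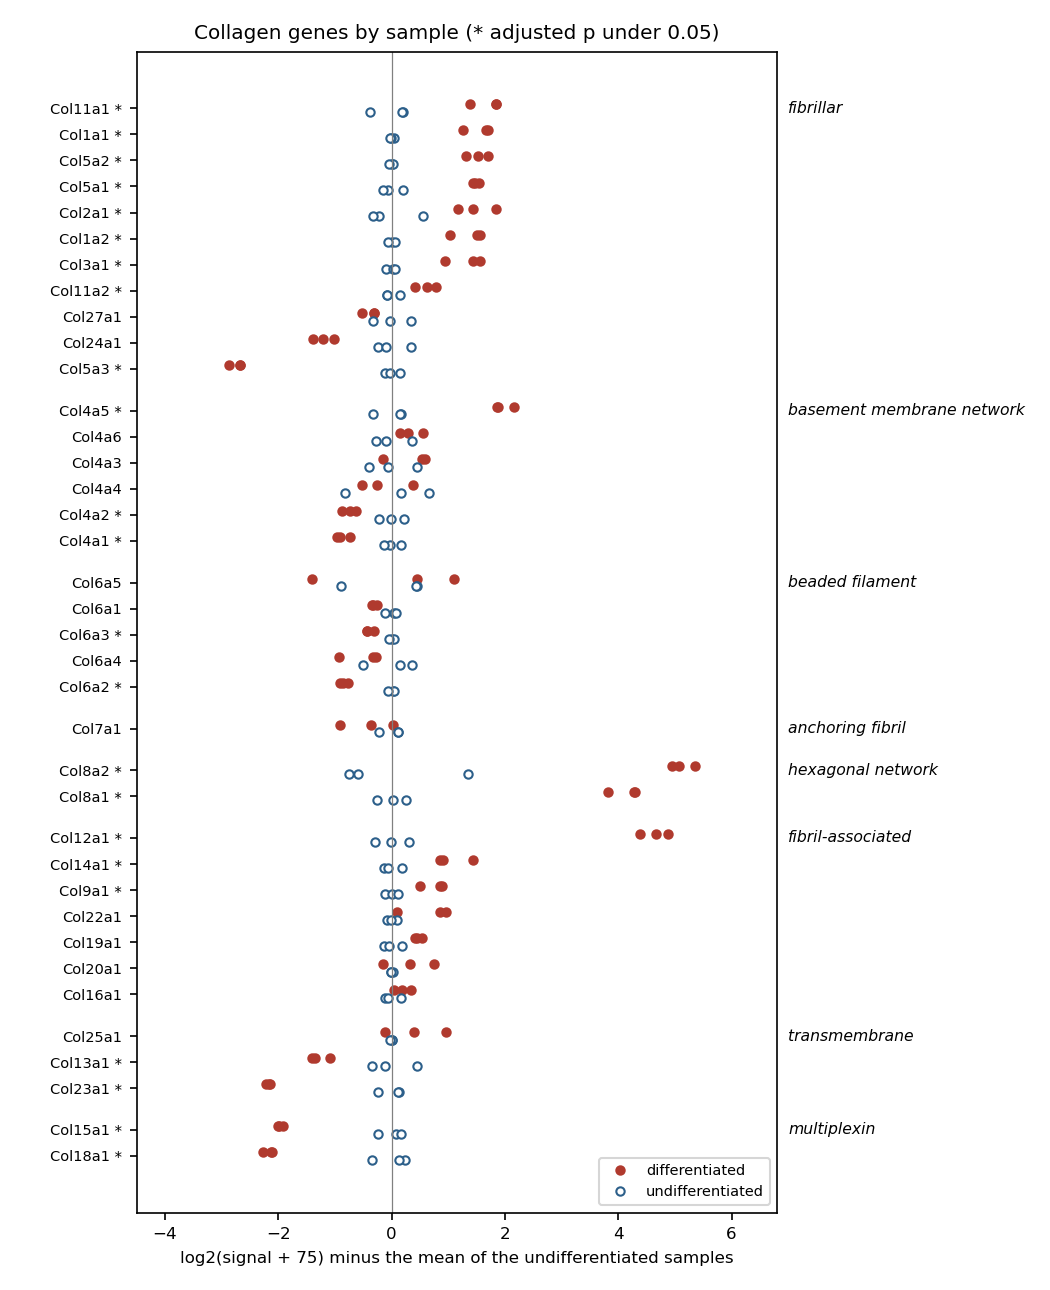
Log2 of signal plus 75 for each tested collagen gene in every sample, less the mean of the undifferentiated samples, by class; filled points are differentiated samples, open points undifferentiated ones, and a star marks an adjusted p under 0.05. Most fibrillar genes have all 3 filled points right of the open ones, Col5a3 has them far to the left, and Col15a1, Col18a1 and Col23a1 lie to the left as well; on arrays scaled on the hybridisation controls the changes of Col11a2, Col14a1 and Col9a1 turned sign.

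Of 18 collagen genes with several tested probe sets, 13 passed on all of them in 1 direction, and none gave opposite calls. Col1a2, Col9a1 and Col27a1 passed on some, and Col25a1 and Col6a4 on none. For Col1a2 a dim probe set on MOE430B had 1299, 1329 and 1495 in differentiated samples, against 1107, 1389 and 1229.7 in undifferentiated samples, overlapped and did not pass (0.14 ± 0.23, adjusted p = 0.819).

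**Figure D4:**
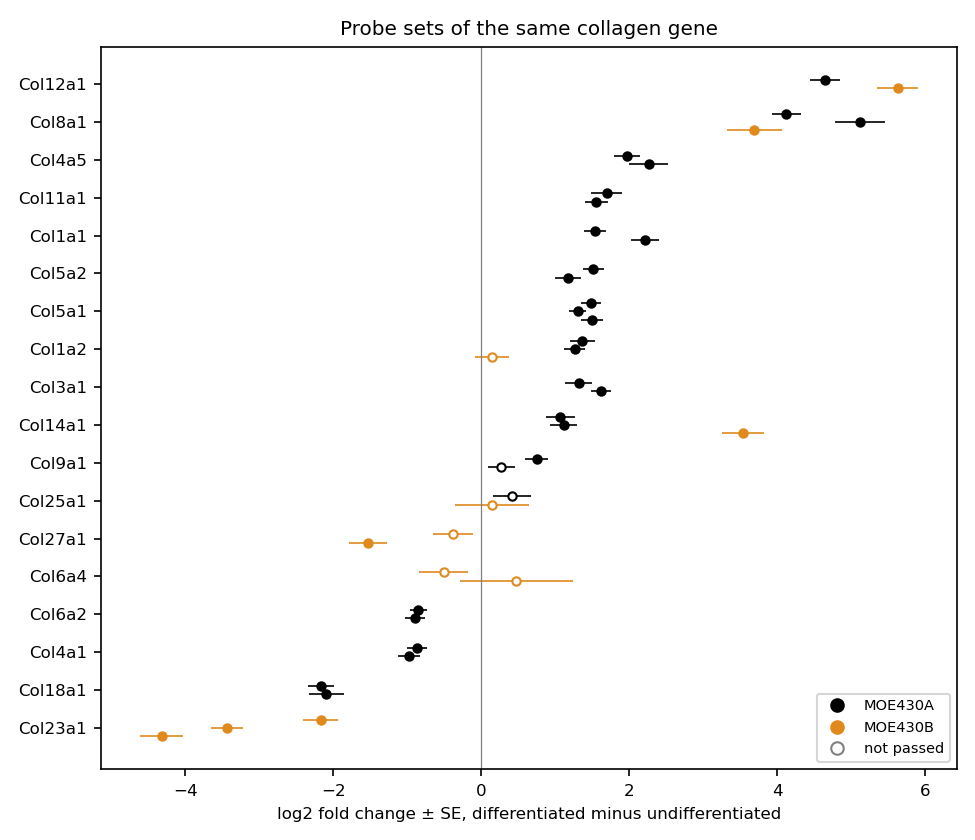
Log2 fold change ± SE, differentiated minus undifferentiated, of each tested probe set of the 18 collagen genes that have several, on arrays as scaled by the authors; black is MOE430A, orange MOE430B, and open points did not pass. Col14a1 has points at 1.07 and 1.12 on MOE430A and at 3.54 on MOE430B, the last with all undifferentiated values below background, Col23a1 runs from -4.32 to -2.17 on MOE430B alone, with the 2 lower points below background in differentiated samples, and the 2 points of Col6a4 lie on either side of 0.

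The brightest collagen signals varied with the array. On the 4 probe sets whose differentiated mean exceeded 100000, those of Col1a1, Col1a2, Col3a1 and Col5a2, differentiated sample 2 was 0.749, 0.708, 0.681 and 0.812 of the mean of samples 1 and 4. On the dimmer MOE430A probe sets of the same genes it was 1.10, 0.811, 1.17 and 1.24 of that mean. So sample 2 was the lowest of its state on all 4 bright probe sets and on 1 of the 4 dimmer ones. By quantile normalization, where the bright probe sets of Col1a2 and Col3a1 no longer passed, the dimmer MOE430A probe sets of Col1a2, Col3a1 and Col1a1 had log2 fold changes of 0.66 (adjusted p = 0.011), 1.58 (0.000349) and 1.88 (0.00108).

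Scaled on the hybridisation controls, the median of all probe sets was -1.03 on MOE430A and -0.93 on MOE430B, and only Col12a1, Col8a1, Col8a2 and Col4a5 passed as higher while 13 collagen genes passed as lower. Of all probe sets 9927 of 16301 passed on MOE430A and 1749 of 18182 on MOE430B, 2.27% and 2.06% of these as higher. The signs of 11 of the 37 genes turned. This scaling multiplies each array by 1 factor, so it moves all probe sets of an array together: less the median of all probe sets Col1a1 was at 1.43, against 1.54 on the arrays as the authors scaled them. The controls were 2.79 and 2.80 times the undifferentiated mean in differentiated samples 4 and 1 but 1.35 times in sample 2. With samples 1 and 4 left out, which leaves 1 differentiated sample, 10 collagen genes passed as higher and 6 as lower.

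**Figure D5:**
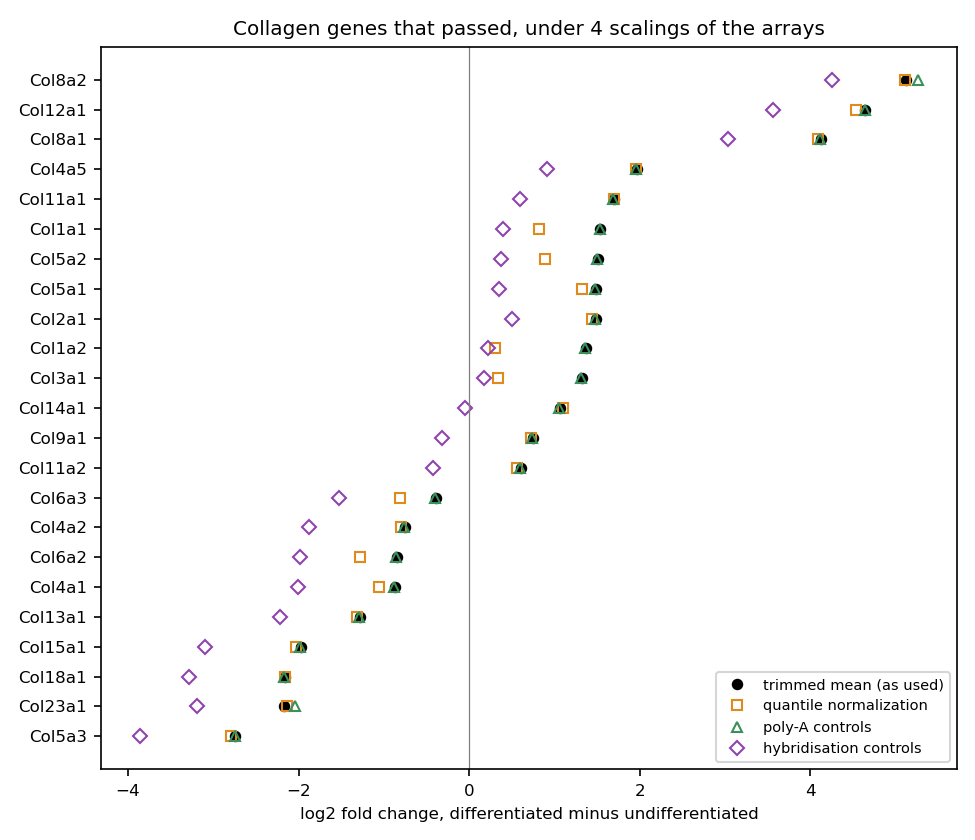
Log2 fold change, differentiated minus undifferentiated, of the 23 collagen genes that passed, under 4 scalings of the arrays (black points are the values used in the text). Diamonds, for scaling on the hybridisation controls, lie left of the black points in every gene and below 0 for 12 genes, the 9 that were lower and Col11a2, Col14a1 and Col9a1, which turned sign, and squares, for quantile normalization, lie far left of them for Col1a2 and Col3a1.

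Genes that make, process and break down collagen were read from lists. Of 20 tested genes for collagen synthesis and folding 9 were higher in differentiated samples, none lower and 11 did not pass (median 0.64), against 9.23% higher and 9.27% lower over all genes tested. Scaled on the hybridisation controls 2 were higher and 5 lower. Under that scaling 9927 of all 16301 tested probe sets on MOE430A passed, 2.27% of these as higher. Plod2, the lysyl hydroxylase of telopeptides, had 16293, 19554 and 21782 in differentiated samples, against 2760.5, 2716 and 2461 in undifferentiated samples (2.82 ± 0.15, adjusted p = 4.81e-05). P4ha2, a catalytic subunit of prolyl 4-hydroxylase, had 6637, 9457 and 7720.5 in differentiated samples, against 1332, 1453 and 1333 in undifferentiated samples (2.45 ± 0.16, adjusted p = 9.33e-05). The groups of both genes lay far apart. Of 8 tested genes for procollagen processing and crosslinking 4 were higher, none lower and 4 did not pass, against the same 9.23% and 9.27% over all genes, and under that scaling 1 was higher and 2 lower. Lox, the enzyme that crosslinks collagen and elastin, had 86973, 74172 and 84664 in differentiated samples, against 2874, 2467 and 2327 in undifferentiated samples (4.96 ± 0.14, adjusted p = 1.52e-05), and Pcolce, an enhancer of C-propeptide removal, had 37366, 39558 and 41313 in differentiated samples, against 18431, 17434 and 17783 in undifferentiated samples (1.14 ± 0.11, adjusted p = 0.000635).

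Of 10 tested receptors 1 was higher, 1 lower and 8 did not pass, a share near the 18.5% of all genes that passed. Scaled on the hybridisation controls none was higher and 4 were lower. Under that scaling 9927 of all 16301 tested probe sets on MOE430A passed, 2.27% of these as higher. Ddr1, a receptor kinase for collagen, had 2217, 2145 and 2072 in differentiated samples, against 1705, 1409.9 and 1605 in undifferentiated samples (0.43 ± 0.13, adjusted p = 0.04). This is its brightest probe set, and 3 others also passed as higher (0.67, 1.51 and 1.63, with adjusted p-values of 0.0422, 0.000439 and 0.00455), while 2 did not pass. Itga1, the alpha chain of a collagen-binding integrin, had 1955, 1404 and 1699.6 in differentiated samples, all below background, against 4488, 5094 and 6266 in undifferentiated samples. It was at least 2.2-fold lower, and limma gave a fitted log2 fold change of -1.60 ± 0.26 (adjusted p = 0.04). On these probe sets neither receptor passed in any of the 6 fits that left out 1 sample, whereas the Ddr1 probe sets at 1.51 and 1.63 passed in all 6 and the one at 0.67 in 1. Of 12 tested degrading enzymes 3 were higher, 5 lower and 4 did not pass, against 9.23% higher and 9.27% lower over all genes. Under hybridisation-control scaling, where 9927 of 16301 MOE430A probe sets passed, 8 were lower and none higher. Ctsk, a cathepsin that cleaves the collagen helix, had 15008, 8806 and 8905 in differentiated samples, against 37138, 45621 and 41929 in undifferentiated samples (-1.96 ± 0.23, adjusted p = 0.00118). Mmp9, a gelatinase, had 701, 881 and 752 in differentiated samples, against 3821, 3771 and 2540.2 in undifferentiated samples (-2.00 ± 0.19, adjusted p = 0.000501). Mmp3, stromelysin, had 75894, 48869.8 and 58844 in differentiated samples, against 30011, 31025 and 34077 in undifferentiated samples (0.93 ± 0.18, adjusted p = 0.0102), and Mmp8, a collagenase of neutrophils, had 673, 644 and 815 in differentiated samples, against 420.2, 394 and 429.7 in undifferentiated samples, and was at least 1.23-fold higher, with all undifferentiated values and 2 of the 3 differentiated ones below background (0.68 ± 0.13, adjusted p = 0.0103). The groups of these 4 enzymes did not overlap.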

How the data were processed

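RNA of 3 differentiated and 3 undifferentiated mammosphere samples was measured on MOE430A and MOE430B. The deposited values are MAS5 signal intensities, 1 per probe set and array, on a linear scale; MAS5 is named in the submitters' processing notes, without a version. The deposited arrays share a trimmed mean (2% off each end) of 1500.5 on MOE430A and 1500.2 on MOE430B, so the authors had scaled them to a common target.

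An offset of 5% of that mean was added before log2, probe sets with a mean signal of at least 20% of it were tested (15939 and 17915), and limma 3.58.1 (R 4.3.3) compared the states chip by chip, without covariates and with Benjamini-Hochberg adjustment over the chip. All adjusted p-values and SEs come from these fits. Tables and figures used Python 3.11.15, pandas 2.3.3 and matplotlib 3.10.9. Symbols came from the platform tables, so probe sets of several genes or none are not named. With 50 simulated probe sets per fold, 54% of 2-fold and 88% of 4-fold changes were recovered on MOE430A, and 0% and 46% on MOE430B. Of the simulated calls 9.15% were false on MOE430A and 4.29% on MOE430B. The simulated arrays gave 142 and 70 calls, against 4550 and 328 in the data. With fewer changed probe sets the adjustment is stricter, so these shares can understate recovery in the data.

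The members, the gene lists, the tests and the use of TrpnX controls as background were chosen with earlier results of these data known. Where a state lay wholly below background, its values were raised to it and the fold is given as a lower bound. Every collagen gene is accounted for, with values in every sample for those that passed, those with a probe set that differed in call or sign from the standing one and those next to the testing level; from each partner list up to 2 rises and 2 falls of largest size among those that passed are named. Scan session 2 held undifferentiated sample 1 alone, and session 1 held the other samples. Alternatives were other scalings, offsets, filters, a trended robust prior, sample number and scan session as blocks, fits without each sample and another rule for the standing probe set.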

Additional observations from a re-analysis of the deposited data

How the results depend on the processing

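Of 14 collagen genes higher in differentiated samples, 12 to 13 passed when 1 sample was left out. Under the other settings 12 to 14 passed, except with hybridisation-control scaling, where 4 did. Of the 9 lower, 7 to 8 passed with 1 sample left out and 7 to 9 under the other settings. The fit that left 1 differentiated sample is outside these ranges. Further genes came to pass as lower under some settings, to 13 in all under hybridisation-control scaling. Under that scaling the log2 fold changes of Col11a2 (-0.42), Col14a1 (-0.052), Col9a1 (-0.32), Col16a1 (-0.94), Col19a1 (-0.50), Col20a1 (-0.63), Col22a1 (-0.37), Col25a1 (-0.64), Col4a3 (-0.69), Col4a6 (-0.65) and Col6a5 (-0.75) turned sign; all probe sets shifted with them by the scaling's construction. The other reversals were of genes that had not passed: without a filter Col19a1 (-0.092) and Col4a4 (0.13), by quantile normalization Col6a5 (-0.025), with scan session as a covariate Col4a4 (0.19), and without differentiated samples 1 and 4 Col4a3 (-0.15), Col4a4 (0.38) and Col7a1 (0.018). With 1 sample left out Col4a4 ran from -0.54 to 0.19 and Col6a5 from -0.47 to 0.78. Less the median of all probe sets, all 37 genes kept the sign of the main fit under hybridisation-control scaling. Without a filter, MOE430A probe sets below the testing level stood for Col19a1 and Col4a4 in place of their MOE430B ones. Their means were 225 in differentiated and 226 in undifferentiated samples for Col19a1, and 31.8 and 22.2 for Col4a4. The cause of the other reversals outside hybridisation-control scaling was not tested.

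Poly-A control scaling took the calls of Col11a2 (adjusted p = 0.126), Col6a3 (0.349) and Col9a1 (0.0524), and scan session those of Col11a2 (0.0732), Col6a3 (0.104) and Col8a2 (0.058). Without differentiated samples 1 and 4, which leaves 1 differentiated sample assumed to vary like the others, Col11a2, Col23a1, Col2a1, Col4a2, Col6a3, Col8a2 and Col9a1 lost theirs. Col6a1 came to pass by quantile normalization (adjusted p = 0.00689), a trended robust prior (0.0188) and hybridisation-control scaling. Deviations of same-numbered samples from the mean of their state had correlations of 0.039, -0.019 and 0.02 on MOE430A. With 3 arrays a state these cannot settle whether the numbers pair the samples. With a replicate block 13 collagen genes were higher and 7 lower, and Col23a1 (adjusted p = 0.105), Col6a3 (0.0866) and Col8a2 (0.0832) no longer passed. With that block MOE430B had 0 calls by limma among all probe sets (2505 at an unadjusted p under 0.05). Over all settings calls ran from 2501 to 9927 on MOE430A and from 0 to 1749 on MOE430B, against 4550 and 328. Hybridisation-control scaling left 2.27% of the MOE430A calls higher, against 49.5%, and 2.06% of those on MOE430B, against 39.0%; there 2 synthesis, 1 processing, 0 receptor and 0 degrading genes were higher, by limma, and 5, 2, 4 and 8 lower. Without differentiated samples 1 and 4, 5 synthesis and 0 degrading genes were higher.

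With 3 samples a state on MOE430B, the residual SD was 0.446 against 0.21 on MOE430A, so genes measured on that chip alone can be missed. Changes of 2-fold were not recovered there in simulation, which gave 70 calls against 328 in the data and can understate recovery. State, medium, serum, dish coating and fluidics station cannot be told apart.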
